A study of Homo sapiens with 60 samples.

Results

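Yijin-tang, a decoction of several herbs given in traditional East Asian medicine, was compared at 2 doses in HT29 cells, an established human colorectal adenocarcinoma line. The comparison holds the 3 libraries of the water extract at the high dose, 500 µg/mL, and the 3 at the medium dose, 100 µg/mL, which is 6 of the 60 RNA sequencing libraries of the series. Members were chosen by their labels, with earlier results of these data known, and no gene was left out other than by a filter on low counts. All 6 libraries share the cell line, the extract, the 24 h of exposure and the library set, and the dose, 5-fold higher in 1 group, is the labelled difference. The question is which transcripts move with dose inside 1 decoction, free of the vehicle libraries, which belong to another library set. The series' other libraries cover the vehicle, the low dose of 20 µg/mL and 7 other extracts, and of these the vehicle (n = 3), the low dose (n = 3) and Soshiho-tang, a second decoction, at the high (n = 2) and medium dose (n = 2) are drawn on for reference. The vehicle was DMSO, at 0.1% in the sample labels and 2% in the series description, and no DMSO percentage is given for the extracts. The labels do not say that replicates were separate cultures, so p-values measure only the spread between libraries, which may be technical.

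Herbal extracts bring plant phenolics and other small molecules to a cell that must clear them, and an intestinal epithelial cell has 2 well known sensors for such compounds. The aryl hydrocarbon receptor binds planar aromatic ligands, moves to the nucleus, pairs with ARNT and switches on enzymes of oxidation, such as CYP1A1 and CYP1B1, together with its own repressors. NRF2 is freed from its inhibitor KEAP1 by electrophiles and oxidants, and its targets make glutathione, reduce carbonyls and quinones and handle iron. Some detoxifying enzymes, NQO1 among them, answer to both.

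Totals of the 6 libraries ran from 20299944 to 28443754 expected counts. Libraries of different doses were as alike as libraries of 1 dose: over the genes tested, the SD of the log2 difference was 0.109 to 0.166 in the 6 pairs within a dose and 0.119 to 0.169 in the 9 pairs between the doses. The library labelled medium dose replicate 3 stood apart in processed pseudogenes, the reverse-transcribed copies of other genes, which held 0.38% of its counts against 0.253% to 0.273% in the other 5. Results are therefore also given without it. All 15 colon epithelial markers, KRT8 among them, were detected in every library, summing to 12934 to 13154 CPM at the medium and 12406 to 13458 at the high dose. CPM are a gene's counts relative to the library total after TMM scaling. Markers of fibroblasts, red blood cells, hepatocytes and endothelium summed to at most 3.19 CPM per list in each of the 6 libraries, with COL1A2, DCN, HBB, HBA2, ALB and KDR at 0. Leukocyte markers summed to 1312 to 1391 at the medium and 1378 to 1507 at the high dose, nearly all of it LYZ, lysozyme, with HLA-DRA and TYROBP at 0.

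From the medium to the high dose 6 genes rose, and all 6 code for enzymes of xenobiotic or glutathione metabolism. These were CYP1A1 and CYP1B1, the aldo-keto reductases AKR1B10 and AKR1C3, the aldehyde dehydrogenase ALDH3A1 and GCLM, the modifier subunit of the enzyme that starts glutathione synthesis. Their rises lay between 1.24-fold for GCLM and 3.05-fold for CYP1A1. Of 14823 genes tested with edgeR's quasi-likelihood test, 7 were called at an adjusted p under 0.05 (0.0472% of genes), 6 higher (0.0405%) and 1 lower (0.00675%). At an unadjusted p under 0.05 stood 1026 genes (6.92%), 519 higher (3.5%) and 507 lower (3.42%). The median log2 change over all genes was −0.003. In bulk RNA a change in the cells' makeup and a change of RNA per cell cannot be told apart. Leaving out high dose replicate 2 ended all 7 calls, with 697 genes then at an unadjusted p under 0.05, and leaving out medium dose replicate 1 or 2 left 2 calls each.

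**Figure D1:**
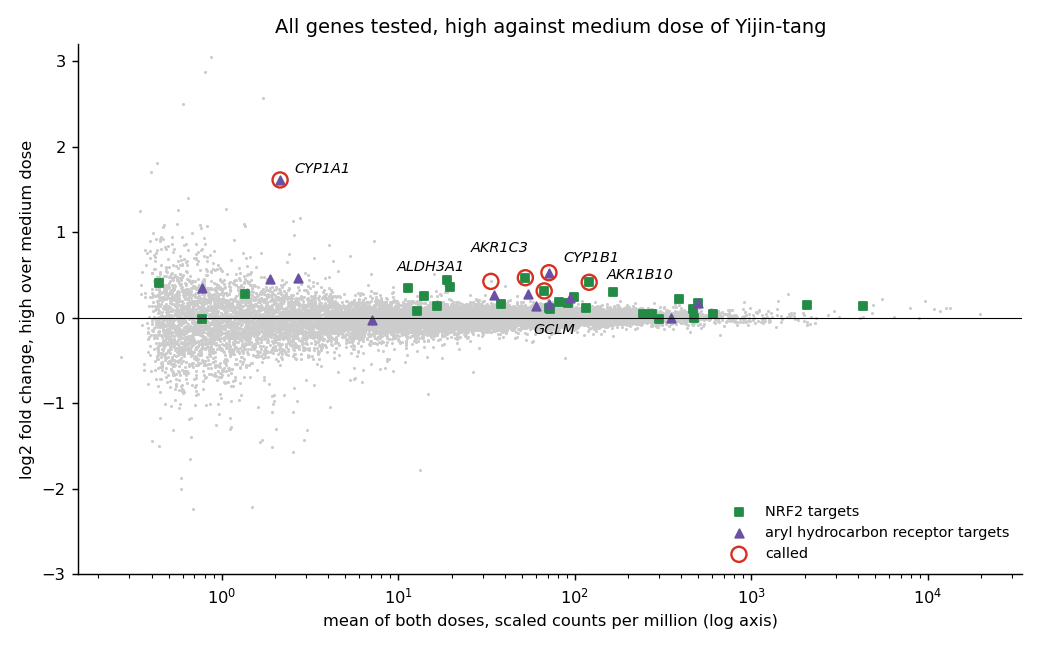
Each grey point is 1 of the 14823 genes tested, with its mean over both doses in CPM on a log axis and its log2 fold change of the high over the medium dose. Triangles mark targets of the aryl hydrocarbon receptor, squares mark NRF2 targets and red circles mark called genes. The called gene whose high dose libraries are all at 0 is not drawn. The 6 circled genes lie between 0.31 and 1.61, above a cloud centred on 0.

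The 250 bases before the RefSeq start of CYP1A1 and GCLM (GRCh38.p14) are printed because these are risen genes, 1 from each sensor's list, whose promoter holds a match. GENCODE release 29 places a start further upstream for both. Capitals mark GCGTG, the core of the site bound by the aryl hydrocarbon receptor with ARNT, and TGACNNNGC, the core of the antioxidant response element bound by NRF2 with a small MAF protein, on either strand.
CYP1A1, chr15:74725529-74725778, minus strand: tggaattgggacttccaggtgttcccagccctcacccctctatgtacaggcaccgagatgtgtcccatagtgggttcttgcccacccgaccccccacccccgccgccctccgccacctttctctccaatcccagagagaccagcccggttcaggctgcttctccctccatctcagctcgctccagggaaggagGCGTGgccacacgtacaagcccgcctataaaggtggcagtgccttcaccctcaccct
GCLM, chr1:93909431-93909680, minus strand: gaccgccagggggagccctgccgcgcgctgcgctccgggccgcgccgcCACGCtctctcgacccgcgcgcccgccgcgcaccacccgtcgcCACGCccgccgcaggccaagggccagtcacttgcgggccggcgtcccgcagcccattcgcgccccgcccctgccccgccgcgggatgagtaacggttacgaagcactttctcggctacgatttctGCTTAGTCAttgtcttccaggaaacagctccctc
In CYP1A1 the single GCGTG began 57 bases before the start, on the gene's own strand. GCLM held GCGTG at 202 and 159 bases and TGACNNNGC at 34 bases before the start, all on the opposite strand. Neither motif overlaps the other in these windows. Of 35116 promoter windows of the same length in RefSeq, 32.2% held GCGTG and 10.9% held TGACNNNGC on either strand. AKR1C3 had 2 windows with no match, and no window was available for CYP1B1, ALDH3A1 and AKR1B10, which were not searched. Over the lists described next, receptor targets held GCGTG in 12 of 18 windows (66.7%) and TGACNNNGC in 1 (5.56%). NRF2 targets held GCGTG in 11 of 26 windows (42.3%) and TGACNNNGC in 6 (23.1%). A gene can have several windows, and a window was available for 10 of the 13 receptor targets and 21 of the 30 NRF2 targets tested.

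CYP1A1 (ENSG00000140465, chr15:74719542-74725610 in GENCODE release 29 on GRCh38), a cytochrome P450 that oxidises polycyclic aromatic compounds and the classic reporter of the receptor, was scarce at every dose. It stood at 1.01, 0.82 and 1.34 CPM in the medium dose libraries and at 3.06, 3.07 and 3.53 in the high dose libraries. Those levels rest on 18 to 29 counts per library at the medium and 66 to 80 at the high dose. Every high dose library lay above every medium dose library, and the change was 1.61 ± 0.20 on the log2 scale (SE, adjusted p = 0.0187). The call was lost in 5 of the 6 single-library omissions, with log2 changes of 1.47 to 1.65 and adjusted p of 0.0784 to 0.176, and kept without medium dose replicate 3. The vehicle libraries held 0.47, 0.33 and 0.69 and the low dose libraries 0.66, 0.68 and 0.76, so the order of means ran vehicle, low, medium, high, with vehicle and low dose overlapping.

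CYP1B1 (ENSG00000138061, chr2:38066973-38109902), a related P450 that also hydroxylates oestrogens, was far better measured. Its levels were 56.3, 59.9 and 59.2 at the medium and 80.3, 83.9 and 88.0 CPM at the high dose, with no overlap. The rise was 1.44-fold (log2 0.53 ± 0.05, adjusted p = 0.0036), the smallest p of all genes tested. Vehicle libraries held 45.6, 47.7 and 45.2, below all medium dose libraries. Without high dose replicate 2 the log2 change was 0.53 with an adjusted p of 0.0911, and this was the only one of the 6 single-library omissions that ended the call for CYP1B1.

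None of the other targets of the aryl hydrocarbon receptor passed the test. Of 14 listed, 13 were tested, 2 were called higher and none lower. All 3 high dose libraries lay above all 3 medium dose libraries in 9 of the 13 and below in none, where over all genes tested the shares were 6.41% and 6.91%. The median log2 change of the list was 0.27, and it stayed between 0.23 and 0.29 over the 16 settings of the fit, which called 0 to 6 members higher. TIPARP, a PARP enzyme that the receptor induces and that restrains it, had 86.8, 85.5 and 85.6 CPM at the medium and 102, 103 and 98.8 at the high dose (log2 0.23 ± 0.04, adjusted p = 0.116). UGT1A6, which joins phenols to glucuronic acid, had 49.8, 49.8 and 47.6 against 58.7, 56.6 and 62.6 (log2 0.27 ± 0.05, adjusted p = 0.181). UGT1A6 shares exons with its neighbours in the UGT1A cluster, so its split of reads is uncertain. ALDH1A3, which makes retinoic acid, had 30.6, 30.9 and 33.6 against 37.7, 36.5 and 39.9 (log2 0.27 ± 0.05, adjusted p = 0.252). These 3 genes did not overlap between the doses.

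AHRR, the repressor that the receptor induces against itself, differed from its list. Medium dose libraries held 6.98, 6.95 and 7.44 CPM and high dose libraries 7.53, 7.4 and 6.00. The groups overlapped and the log2 change was −0.02 ± 0.11 (adjusted p = 0.98). SLC7A5, an amino acid transporter on the same list, was likewise near 0, at −0.01 ± 0.04 (adjusted p = 0.983).

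**Figure D2:**
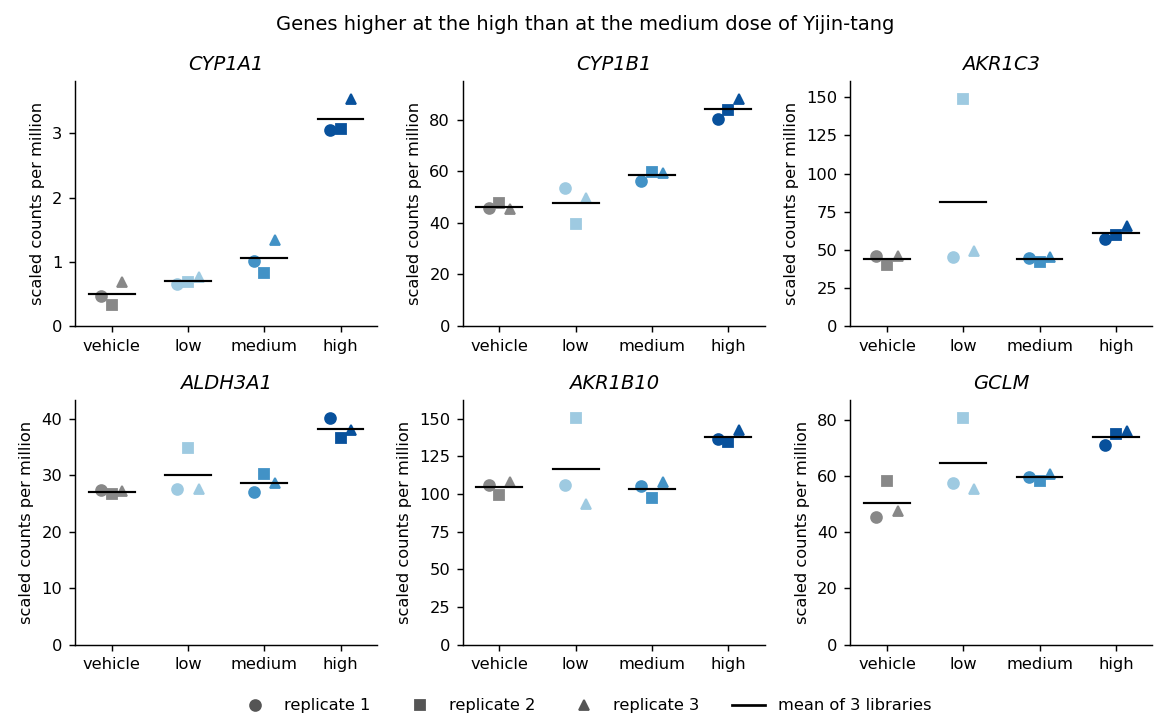
Scaled CPM (vertical axes, from 0) of the 6 genes called higher, in each library of the vehicle and of the low, medium and high dose of Yijin-tang, with the replicate number as marker shape and the mean of 3 libraries as a bar. In every panel the 3 high dose libraries lie above the 3 medium dose libraries. The single high points at the low dose in AKR1C3, AKR1B10, ALDH3A1 and GCLM are the library labelled low dose replicate 2. It is part of the low dose means but not of the fits of 6 and 10 libraries.

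NRF2 targets supplied 3 of the 6 risen genes. AKR1B10 (ENSG00000198074, chr7:134527592-134541408), a reductase of aldehydes and retinal, had 105, 97.2 and 108 CPM at the medium and 136, 134 and 142 at the high dose. The groups did not overlap, and the rise was 1.33-fold (log2 0.41 ± 0.05, adjusted p = 0.0187). At the vehicle it stood at 106, 99.4 and 108, inside the range of the medium dose libraries. The call was lost without medium dose replicate 1 (adjusted p = 0.122), medium dose replicate 2 (0.0913) or high dose replicate 2 (0.0969).

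AKR1C3 (ENSG00000196139, chr10:5035354-5107686), which reduces prostaglandins and keto-steroids, showed the same shape. Medium dose libraries had 44.8, 42.2 and 44.9 and high dose libraries 57.0, 59.8 and 65.6 CPM, without overlap (1.38-fold, log2 0.47 ± 0.06, adjusted p = 0.0187). The vehicle libraries had 46.0, 40.3 and 45.6. Its near-identical neighbours did not pass, with AKR1C1 at 0.36 ± 0.07 (adjusted p = 0.209) and AKR1C2 at 0.43 ± 0.10 (adjusted p = 0.413). Reads of these paralogs are hard to assign, so the share of each is uncertain. The AKR1C3 call was lost without medium dose replicate 2 (adjusted p = 0.136), medium dose replicate 1 (0.129) or high dose replicate 2 (0.105).

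GCLM (ENSG00000023909, chr1:93885205-93909456) had 60.0, 58.4 and 61.0 CPM at the medium and 71.2, 75.3 and 76.1 at the high dose. The high dose libraries all lay above the others, and the rise was the smallest of the 6 (1.24-fold, log2 0.31 ± 0.04, adjusted p = 0.0346). The vehicle libraries had 45.7, 58.4 and 47.5, of which replicate 2 reached the lowest medium dose library. The call was lost in 5 of the 6 single-library omissions, with adjusted p up to 0.417 (without medium dose replicate 2), and kept without high dose replicate 1.

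SLC7A11 and GCLC, partners of GCLM in glutathione supply, and also TXNRD1 stood apart between the doses without passing the test. SLC7A11, the transporter that brings in cystine, had 154, 146 and 145 at the medium and 169, 186 and 192 CPM at the high dose (log2 0.30 ± 0.05, adjusted p = 0.181). GCLC, the catalytic subunit that GCLM assists, had 93.8, 92.7 and 86.5 against 111, 108 and 104 (0.24 ± 0.05, adjusted p = 0.209). TXNRD1, thioredoxin reductase, had 354, 354 and 370 against 399, 415 and 442 (0.22 ± 0.04, adjusted p = 0.252). For all 3 the vehicle libraries lay below the high dose libraries.

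Across the whole NRF2 list, 30 of 30 members were tested, 3 were called higher and none lower. High dose libraries lay above all medium dose libraries in 17 of the 30 and below them in none, beside 6.41% and 6.91% of all genes. The median log2 change was 0.17, the members ran from −0.02 to 0.47, and 27 were above 0, where 48.5% of all genes were. Over the 16 settings the median stayed between 0.15 and 0.19 with 0 to 10 members called higher. Iron handling members were among those that did not overlap: FTH1, the ferritin heavy chain, was at 3921 to 4184 at the medium and 4229 to 4778 at the high dose (0.13 ± 0.05, adjusted p = 0.685). HMOX1, which opens the heme ring, had 10.5, 9.51 and 9.98 against 14.6, 11.1 and 12.4 (0.35 ± 0.10, adjusted p = 0.653). NQO1, which reduces quinones and is on both lists, had 462, 468 and 482 against 515, 523 and 555 (0.18 ± 0.04, adjusted p = 0.408). The pentose phosphate pathway enzymes PGD, TKT and TALDO1 overlapped, at 0.04 ± 0.04, 0.05 ± 0.05 and −0.02 ± 0.04.

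ALDH3A1 (ENSG00000108602, chr17:19737984-19748943), which oxidises aromatic and lipid aldehydes, is on neither list as written, though it is a known receptor target in liver. It had 27.1, 30.2 and 28.6 CPM at the medium and 40.2, 36.5 and 38.01 at the high dose, with no overlap (1.34-fold, log2 0.42 ± 0.06, adjusted p = 0.0282). The vehicle libraries had 27.3, 26.7 and 27.3. Every single-library omission took its adjusted p over 0.05, up to 0.275 without medium dose replicate 1.

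Without medium dose replicate 3, the library rich in processed pseudogenes, CYP1A1, CYP1B1, AKR1B10 and AKR1C3 were still called, at log2 changes of 1.79, 0.53, 0.44 and 0.48. ALDH3A1 (0.42) and GCLM (0.32) then had an adjusted p of 0.0815 each, and 6 genes were called in all, 5 of them shared with the 7 above.

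The 1 gene called lower, ENSG00000267059, is a protein coding annotation without a symbol at chr19:1578339-1605445 that overlaps MBD3 and UQCR11 on the same strand. It had 173, 41 and 68 counts in the medium dose libraries and 0 in all 3 high dose libraries, at least 28.8-fold lower against a floor of 3 counts per library. It was also at 0 in 11 of the 18 libraries of the vehicle, Yijin-tang and Soshiho-tang, and reads of such overlapping transcripts can be assigned either way, so this value is uncertain. The call was lost without high dose replicate 1 (adjusted p = 0.0978) or high dose replicate 2 (0.105). It was also lost with robust empirical Bayes moderation, an alternative chosen after seeing the data, which called 6 genes.

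Chemokines and other NF-kB targets, the inflammatory output of an epithelial cell, gave no called gene among 18 tested of 25 listed. Over the 16 settings 0 to 2 members were called higher and none lower. Their median log2 change was 0.17, with 5 members whose high dose libraries all lay above the medium dose libraries and none below, where over all genes tested 6.41% lay above and 6.91% below. CXCL1, a neutrophil attractant, had 13.8, 14.1 and 11.6 CPM at the medium and 19.3, 21.1 and 16.2 at the high dose (log2 0.51 ± 0.10, adjusted p = 0.252). CXCL8, interleukin 8, had 16.4, 15.8 and 17.1 against 18.8, 19.1 and 22.7 (0.30 ± 0.08, adjusted p = 0.535). At the vehicle CXCL1 held 2.35, 2.30 and 1.48 and CXCL8 7.42, 8.59 and 8.56, below both doses, in a different library set. CCL20, which draws T helper 17 cells, and ICAM1, an adhesion receptor, also did not overlap, at 0.45 ± 0.20 (adjusted p = 0.719) and 0.29 ± 0.09 (0.658). The pathway's own regulators lay close to 0: NFKBIA, the inhibitor of NF-kB, at 0.06 ± 0.06, NFKB1 at 0.00 ± 0.04 and TNFAIP3 at 0.13 ± 0.16, all overlapping. PI3, elafin, an antiprotease of mucosal surfaces, had 15.9, 17.6 and 14.6 against 21.8, 22.2 and 18.7 (0.39 ± 0.08, adjusted p = 0.355), while its list of secreted defence genes had a median of −0.08, which was −0.16 without high dose replicate 2, −0.13 without high dose replicate 1, −0.05 without medium dose replicate 2 and 0.00056 without high dose replicate 3. CXCL1, CXCL2 and CXCL3 are similar in sequence, so their split of reads is uncertain.

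Goblet cell and secretory genes gave no called gene among 16 tested. In 4 members all high dose libraries lay below all medium dose libraries and in 1, REG4, above, beside 6.91% below and 6.41% above over all genes tested. The list's median log2 change was −0.12. It ran from −0.15 to −0.03 over the 16 settings, with −0.03 without high dose replicate 3 and −0.08 with a minimum mean of 1 CPM. The settings called 0 to 3 members lower and none higher. BCAS1 had 65.8, 62.5 and 62.1 at the medium and 53.6, 50.5 and 53.4 CPM at the high dose (−0.27 ± 0.04, adjusted p = 0.116), the smallest p of any gene with a lower level except ENSG00000267059. SYTL2, which tethers secretory granules, had 44.1, 41.2 and 40.6 against 36.8, 34.4 and 36.6 (−0.23 ± 0.05, adjusted p = 0.362). CREB3L1 and FCGBP, a transcription factor of secretory cells and a mucus protein, also did not overlap, at −0.21 ± 0.07 (adjusted p = 0.658) and −0.20 ± 0.09 (adjusted p = 0.714). MUC2, the main gel-forming mucin, had 20.1, 20.8 and 17.8 against 17.97, 21.8 and 17.4, with the doses overlapping (−0.05 ± 0.09, adjusted p = 0.949).

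Lower levels at the high dose were also seen in other genes that did not pass the test, of which FAM131B, SELENBP1 and ITGA1 were chosen after their values were seen. FAM131B had 6.77, 6.36 and 6.91 at the medium and 3.98, 4.61 and 4.81 CPM at the high dose (−0.58 ± 0.11, adjusted p = 0.209). SELENBP1, a methanethiol oxidase of mature colonocytes, had 17.4, 17.9 and 17.6 against 14.4, 13.0 and 14.04 (−0.35 ± 0.06, adjusted p = 0.209). ITGA1, the collagen-binding integrin alpha chain, had 77.4, 74.3 and 77.9 against 67.7, 64.6 and 63.7 (−0.23 ± 0.04, adjusted p = 0.209). ANXA13, an annexin of enterocytes on the list of brush border genes, had 13.8, 13.2 and 16.5 against 11.2, 10.9 and 10.9 (−0.39 ± 0.09, adjusted p = 0.362). In each of these 4 genes the doses did not overlap.

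Other programs of growth, stress and metabolism gave no called gene. The counts of members outside the range of the other dose stand beside 6.41% of all genes above and 6.91% below. Cholesterol synthesis genes had a median log2 change of −0.04 over 25 members, 8 of which had all high dose libraries below the medium dose, LSS (−0.13, adjusted p = 0.685) and SREBF2 (−0.08, adjusted p = 0.718) among them. Targets of ATF4, the factor of amino acid and translation stress, had a median of −0.05 over 28 members, with 4 below. Chaperones of the endoplasmic reticulum had a median of 0.05 over 20, with 5 above, and HSPA5, the main one, was at 0.15 (adjusted p = 0.491). Proteasome subunits had a median of 0.05 over 31, with 6 above, and DNA replication genes 0.03 over 36, with 7 above and 1 below. Mitosis genes stood at 0.03 over 30, interferon response genes at 0.01 over 35, nuclear genes of the respiratory chain at 0.004 over 44 with none outside the range of the other dose, and cytosolic ribosomal protein genes at −0.003 over 73. The 13 genes of the mitochondrial genome had a median of 0.12, but only MT-ATP8 did not overlap, and their share of counts was 8.81% to 9.91% at the medium and 8.89% to 10.3% at the high dose. Leaving out medium dose replicate 2 or high dose replicate 3 moved the medians of ATF4 targets to −0.02 and −0.03, of proteasome subunits to 0.03 and 0.03 and of the mitochondrial genome to 0.19 and 0.19. Without medium dose replicate 3 the mitochondrial genome stood at 0.08 and mitosis genes at 0.01, the latter also without high dose replicate 2. The medians of interferon, respiratory chain and ribosomal protein genes took both signs over the settings. The settings called 0 to 6 genes of the mitochondrial genome and 0 to 1 proteasome subunits higher, the 6 and the 1 without a filter on low counts. In all, 40 of the 42 lists held no called gene in the main fit.

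**Figure D3:**
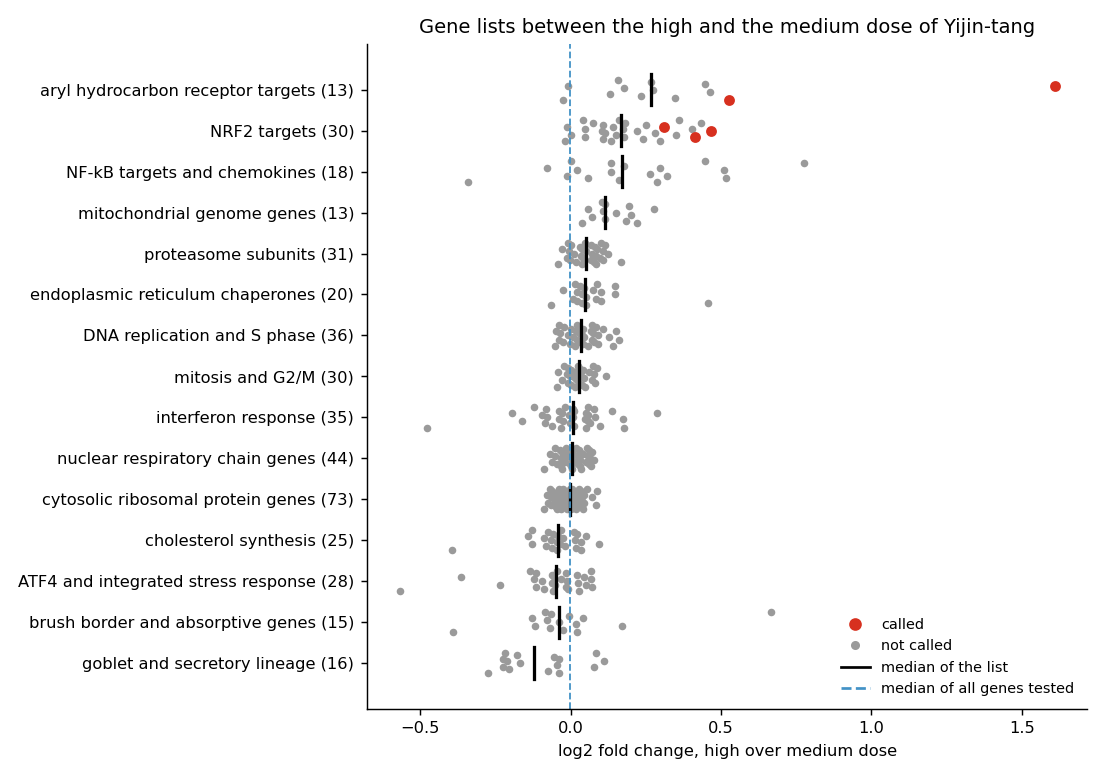
Log2 fold change of the high over the medium dose (horizontal axis) of each tested member of 15 gene lists, with the number tested in brackets, the list's median as a black bar and the median of all genes tested as a dashed line. Red points are called genes, which occur in the first 2 lists only. The receptor targets and NRF2 targets have medians of 0.27 and 0.17, and the goblet list has −0.12.

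Single genes listed for their roles in growth, signalling and metabolism were not called. MYC, the growth regulator, had 253, 273 and 267 CPM at the medium and 278, 269 and 259 at the high dose, overlapping (0.03 ± 0.04, adjusted p = 0.932). EGR1, an immediate early gene, had 27.1, 27.1 and 30.9 against 32.0, 32.0 and 32.9 (0.19 ± 0.06, adjusted p = 0.655) and FOS was at 0.07 ± 0.06. CDKN1A, the cell cycle inhibitor p21, was at 0.16 ± 0.08 and TXNIP, which reports glucose supply, at 0.13 ± 0.06, both overlapping between the doses. LGR5, a receptor of intestinal stem cells, was at 0.14 ± 0.06 (adjusted p = 0.718). HMGCS1, of cholesterol synthesis, was at −0.04 ± 0.04 and MT2A, a metallothionein, at −0.16 ± 0.11.

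Soshiho-tang is the only other decoction in the same library set at the same 2 doses, so the dose steps could be set against each other. Red blood cell markers summed to 9.58 CPM in replicate 3 of the high dose of Soshiho-tang, as labelled, with HBB at 3.31 and HBA2 at 2.93, where the other 9 libraries of this comparison summed to at most 0.288 with both genes at 0. Leukocyte markers other than LYZ summed to 23.0 CPM there, HLA-DRA at 3.87 among them, against 7.73 to 11.9 in the other 9. In a fit of these 10 libraries over 15520 genes, the step from medium to high dose called 756 genes with Soshiho-tang (4.87%) and 2 with Yijin-tang (0.0129%). Without Soshiho-tang high dose replicate 3 these were 463 and 4, in a fit chosen after seeing the data. The steps themselves differed in 130 genes (0.838%), with the Yijin-tang step the higher in 60 (0.387%) and the lower in 70 (0.451%). In 128 of the 130 the Soshiho-tang step was the larger in size, and in 99 both steps had the same sign. All 70 genes with the lower Yijin-tang step had a Soshiho-tang step above 0 and all 60 with the higher one had it below 0. The number was 113 without Soshiho-tang high dose replicate 3. It was 1118 without Soshiho-tang high dose replicate 2, 30 without its medium dose replicate 2 and 31 without its medium dose replicate 3, and 63 to 111 without single Yijin-tang libraries, with 63 without high dose replicate 2.

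Of the 7 genes called between the doses of Yijin-tang, 5 had a step that differed from that of Soshiho-tang. For CYP1A1 the steps were 1.61 with Yijin-tang and 5.27 ± 0.10 with Soshiho-tang, a difference of −3.65 ± 0.23 (adjusted p = 1.58e-05). For CYP1B1 they were 0.52 and 1.83 ± 0.06 (difference −1.30 ± 0.08, adjusted p = 1.35e-05). ALDH3A1, AKR1B10 and GCLM had differences of −0.83 ± 0.10 (adjusted p = 0.00247), −0.52 ± 0.10 (0.0398) and −0.41 ± 0.08 (0.0328). For AKR1C3 the difference was −0.40 ± 0.13 and did not pass (adjusted p = 0.257). Without Soshiho-tang high dose replicate 3 the differences were −3.63 for CYP1A1, −1.31 for CYP1B1, −0.80 for ALDH3A1 and −0.39 for AKR1B10 (adjusted p = 0.0495), all still called. GCLM then lost its call (−0.37, adjusted p = 0.0665), and AKR1C3 was at −0.23 (adjusted p = 0.456). Within the lists, the Yijin-tang step was lower for 5 of 13 receptor targets and 6 of 30 NRF2 targets, and higher for none of them. Without that library these were 5 and 3, again with none higher.

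Other genes separated the decoctions where Yijin-tang showed next to no step. GABRP, a subunit of the GABA receptor, was at −0.09 with Yijin-tang and −1.42 ± 0.10 with Soshiho-tang (difference 1.33 ± 0.13, adjusted p = 0.00064). NOX1, the NADPH oxidase of the colon, was at −0.15 against −1.22 ± 0.10 (difference 1.07 ± 0.12, adjusted p = 0.00231). Cholesterol synthesis genes had 6 members with the lower Yijin-tang step, among them SQLE (0.03 against 0.54) and INSIG1 (−0.06 against 0.44). ATF4 targets had 4, among them TRIB3 (−0.06 against 0.57) and ASNS (−0.12 against 0.39). Without Soshiho-tang high dose replicate 3 these 2 lists had 5 and 4, and GABRP (1.21), NOX1 (1.00), SQLE (−0.44), INSIG1 (−0.40), TRIB3 (−0.66) and ASNS (−0.40) were still called.

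**Figure D4:**
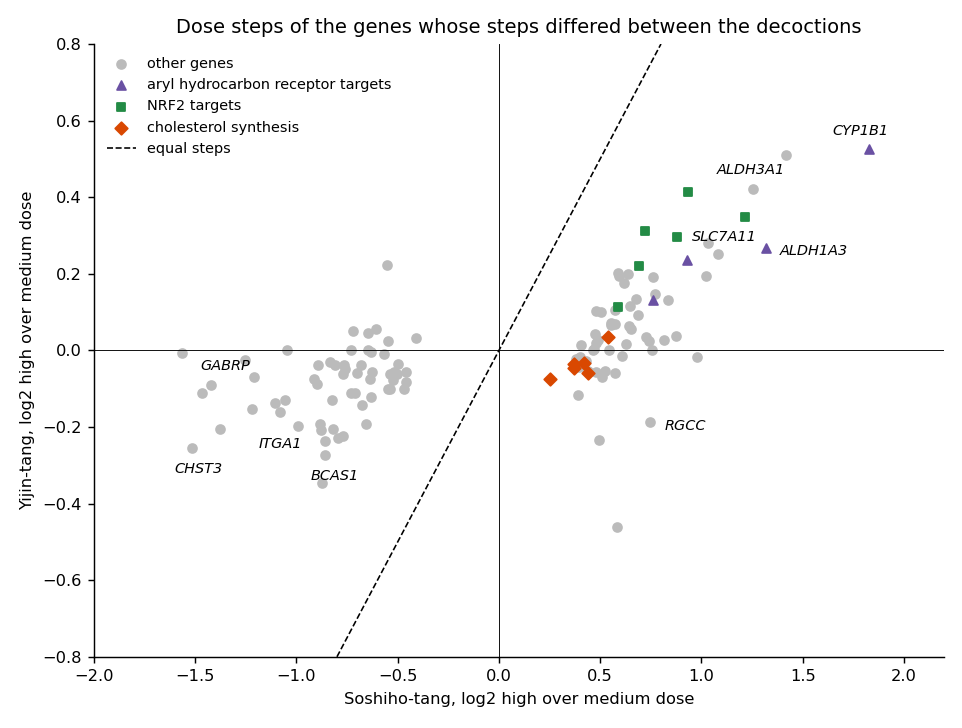
Log2 change from the medium to the high dose of Soshiho-tang (horizontal axis) and of Yijin-tang (vertical axis, drawn on a finer scale) for the 130 genes whose steps differed, with the dashed line where the steps are equal. Symbols mark the gene lists, and 3 genes lie beyond the axes, CYP1A1 at 5.27 and 1.61 among them. In 128 genes the Soshiho-tang step is the larger in size.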

How the data were processed

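The deposited values are expected counts per gene, without normalization. Strand-directional mRNA libraries were read as 100 bp pairs per the labels' protocols, and RSEM 1.3.3, STAR 2.7.3a, Trim Galore 0.6.5, FastQC 0.11.9 and the build GRCh38 are listed in the submitters' processing notes. The annotation release and the strand setting of the counting are not given in the sources used here. Expected counts were rounded, filtered with filterByExpr, scaled by TMM and tested with edgeR 4.0.16 (quasi-likelihood, Benjamini-Hochberg over all genes tested, R 4.3.3) on the 6 libraries, and on 10 libraries for the difference of dose steps. Errors after ± are standard errors. Levels are CPM, scaled by TMM over 18 libraries. Members, gene lists (42, with 831 of 833 entries found), the rule for named genes and the alternatives were chosen with earlier results of these data known. Named genes are called genes of at least 5 CPM without overlap (up to 12 each way, by fold change), up to 4 called genes of a list with at least 2, a list of 30 genes for their roles and, for the dose steps, 5 each way; some results are not reported here. TXNRD1, UGT1A6, AKR1C1, AKR1C2, BCAS1, SYTL2, FAM131B, SELENBP1, ITGA1, NAMPT, SLC22A3, LMO4 and the list members and pseudogenes named as examples were chosen after their values were seen. Alternatives were DESeq2 1.42.0, RLE, other filters, other libraries in the fit, the replicate block, robust empirical Bayes and each library left out. On simulated data with 200 changed genes, the test on 6 libraries recovered 47.5% of 1.25-fold, 69.5% of 1.5-fold and 82.5% of 2-fold changes among the 14649, 14644 and 14659 genes tested, with 15.2%, 12.6% and 6.78% of calls false, above the nominal 5%. At 4-fold it recovered 97.5%, with 11.0% of calls false. The test of dose steps on 10 libraries recovered 0% of 1.25-fold, 44.5% of 1.5-fold, 72.5% of 2-fold and 78.5% of 4-fold changes. Of its calls at 1.5-fold, 2-fold and 4-fold, 10.1%, 7.05% and 7.65% were false.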

Additional observations from a re-analysis of the deposited data

Results flagged for a closer look

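The step from the medium to the high dose differed between Yijin-tang and Soshiho-tang by the interaction test (edgeR quasi-likelihood, 10 libraries) in 130 genes. Differences are the Yijin-tang step minus the Soshiho-tang step on the log2 scale. Among the genes called between the doses of Yijin-tang they were −3.65 for CYP1A1, −1.30 for CYP1B1, −0.83 for ALDH3A1, −0.52 for AKR1B10 and −0.41 for GCLM. Among other targets of the aryl hydrocarbon receptor and NRF2, TIPARP stood at −0.69, ALDH1A3 at −1.05, SLC7A11 at −0.59 and HMOX1 at −0.87. In these 9 genes both steps were above 0 and the Soshiho-tang step was the larger. RGCC at −0.93 had a Soshiho-tang step above 0 and a Yijin-tang step of −0.19. Among protein coding genes whose mean reached 5 CPM in any of the 4 groups, the largest differences the other way were 1.33 for GABRP, 1.26 for CHST3, 1.23 for SLC38A11, 1.07 for NOX1 and 1.05 for RASL11A, all with a Soshiho-tang step below −1 and Yijin-tang steps between −0.25 and 0. Soshiho-tang had 2 libraries per dose, and red blood cell markers summed to 9.58 CPM in high dose replicate 3 against at most 0.288 in the other 9 libraries. Without that library GCLM (adjusted p = 0.0665) and HMOX1 (0.0795) lost their calls, and the other genes named here were still called.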

How the results depend on the processing

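Between the doses of Yijin-tang 7 genes were called. Of the other settings, RLE normalization and a minimum mean of 1 CPM gave 7, library set 8 in the fit 9, 54 libraries in the fit 6 and robust empirical Bayes 6. DESeq2 called 19, no filter on low counts 195 and 52 libraries in the fit 31. The fits of library set 8 and of 52 libraries left out Yijin-tang low dose replicate 2 and Soshiho-tang high dose replicate 3. Leaving out single libraries gave 0 to 6. For the difference of dose steps (130 genes), no filter gave 502, 52 libraries in the fit 296 and single libraries left out 30 to 1118, while DESeq2 gave 158, RLE 130, a minimum of 1 CPM 133, 54 libraries 131 and robust empirical Bayes 136. Without Soshiho-tang high dose replicate 3 the 10-library fit called 463 genes with Soshiho-tang in place of 756, and 4 with Yijin-tang in place of 2. No filter means 28393 genes tested in place of 14823, and the cause of the differing numbers was not tested for any setting. The fit of 54 libraries shared 4 of the 7 calls, without AKR1C3, GCLM (adjusted p = 0.478) and ENSG00000267059. The fit of 52 libraries shared 6, without ENSG00000267059. GCLM also lost its call with library set 8 in the fit (0.0529). Named genes that were not called changed sign when 1 library was left out: AHRR ran from −0.087 to 0.0695 (above 0 without replicate 3 of either dose), CXCL2 from −0.0182 to 0.26 and MYC from −0.0053 to 0.0499 (both below 0 without medium dose replicate 1), NFKBIA from −0.0038 to 0.11 (below 0 without high dose replicate 1) and MUC2 from −0.15 to 0.0108 (above 0 without high dose replicate 3). Deviations of same-numbered libraries across the doses correlated at 0.13, −0.01 and 0.14, and those of other-numbered libraries at −0.18 to 0.09. Among genes of at least 5 CPM these were 0.20, −0.005 and 0.25, against −0.31 to 0.19. Whether the numbers pair the samples is not settled by these values, and the main fit did not use them as pairs. With the replicate block 17 genes were called between the doses, 14 higher and 3 lower, all 7 of the main call among them, and 120 for the dose steps. CYP1A1 rests on 18 to 80 counts per library. An omission that leaves Soshiho-tang 1 library at a dose assumes that the lone library varies like the other groups.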

Other observations

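Genes outside the lists also had no overlap between the doses without passing the test, and 3 of them are given here as examples. Over all genes tested, 6.41% had all high dose libraries above all medium dose libraries and 6.91% had them below. NAMPT, the rate-limiting enzyme of NAD salvage, had 168, 168 and 165 CPM at the medium and 186, 195 and 194 at the high dose (log2 0.20 ± 0.04, adjusted p = 0.224). SLC22A3, a transporter of organic cations, had 5.69, 5.26 and 6.34 against 8.57, 7.63 and 8.34 (0.51 ± 0.10, adjusted p = 0.241). LMO4, a LIM-domain cofactor, had 152, 149 and 150 against 133, 131 and 131 (−0.19 ± 0.04, adjusted p = 0.209). They were chosen after their values were seen.

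Among genes of at least 5 CPM at 1 dose, 10 processed pseudogenes had a log2 change between −0.89 and −0.51, none of them called. Of 409 processed pseudogenes tested, 215 had their highest level of the 6 libraries in medium dose replicate 3, which is 52.6%, while 18.3% of all genes did. RPL13AP5, a copy of a ribosomal protein gene, had 20.3, 19.9 and 57.1 CPM at the medium and 20.6, 21.3 and 19.7 at the high dose (log2 −0.63 ± 0.33, adjusted p = 0.736). ANXA2P2, a copy of annexin A2, had 8.54, 8.51 and 40.8 against 7.99, 9.40 and 13.0 (−0.89 ± 0.52, adjusted p = 0.766). FTH1P10, a ferritin copy, had 2.01, 2.15 and 17.3 against 2.87, 4.14 and 5.69 (−0.71 ± 0.68, adjusted p = 0.868). In all 3 the 1 medium dose library alone stands high. The library labelled low dose replicate 2 was likewise high, with processed pseudogenes at 0.388% of counts, against 0.282% to 0.295% in the vehicle libraries. Parent genes and copies share sequence, so the split of reads is uncertain, and a cause was not tested.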
